A study of Mus musculus with 4 samples.

Results

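The genes described here are 10 genes of MHC class I antigen presentation in developing mouse B cells: the class I chains H2-K1, H2-D1, H2-Q7 and H2-T23, their light chain B2m, the loading genes Tap1, Tap2, Tapbp and Erap1, and the regulator Nlrc5. They were taken by symbol from the 55573 gene identifiers of each file, by a rule that names genes and no value, though with earlier results of these data known, and all 10 were found and all 10 passed the filter on low values. RNA was sequenced from Fr.C+C' B cells (Hardy fractions of the pro-B to pre-B stage) in bone marrow of C57BL/6 mice aged 8 to 12 weeks. There were 4 libraries, of which 2 were labelled wild type (WT 1 and WT 2) and 2 ADAR1 KO (KO 1 and KO 2). ADAR1 is the RNA-editing enzyme, the product of Adar, that turns adenosines of double-stranded RNA into inosines. What drove the deletion and which exons it removed are not in the labels, nor is the number of mice behind a group, so a p-value here measures the spread between libraries that may be technical repeats.

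MHC class I molecules display peptides of the cell's own proteins at the surface for inspection by CD8 T cells. Peptides made by the proteasome are pumped into the endoplasmic reticulum by the TAP transporter, trimmed there by ERAP1, and loaded with the help of tapasin onto a heavy chain paired with beta-2 microglobulin. H2-K and H2-D are the classical chains of this mouse strain, while Qa-1 (H2-T23) and Qa-2 (H2-Q7) are non-classical chains, of which Qa-1 is read by NK and CD8 T cells through CD94/NKG2 receptors. NLRC5 is the transactivator of class I genes. It acts with RFX, CREB/ATF and NF-Y proteins at conserved X and Y boxes upstream of the chains and B2m, and interferons raise many genes of the pathway.

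The X2 and Y boxes could be read in the RefSeq promoter windows of several members. They are shown because H2-K1, H2-D1, H2-Q7 and B2m share both in sequence. The window of H2-T23, the remaining chain, held a match to the Y box but none to the X2 box. The 250 bases before the transcript start were searched on both strands for TGACG (the core of the CRE-like X2 box) and CCAAT (the Y box, ATTGG when reversed). Windows were found for 8 of the 10 members (GRCm38.p6), all but Tap2 and Nlrc5. In 4 of them, H2-K1, H2-D1, H2-Q7 and B2m, TGACG was followed after 19 or 20 bases by ATTGG, an arrangement chosen after these sequences were seen. It occurred in 0.128% of the 32851 promoter windows of that table. The stretches are given 5′ to 3′ on the gene's strand, with both motifs in capitals: H2-K1 at chr17:34000359-34000388 (minus strand), H2-D1 at chr17:35262993-35263022 (plus), H2-Q7 at chr17:35439091-35439119 (plus) and B2m at chr2:122147609-122147638 (plus).
H2-K1: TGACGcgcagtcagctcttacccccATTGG
H2-D1: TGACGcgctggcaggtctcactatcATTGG
H2-Q7: TGACGtgtaacagttctcacccctATTGG
B2m: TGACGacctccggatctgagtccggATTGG

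The stretches of H2-K1 and H2-D1 were identical at 23 of 30 bases, while that of B2m matched H2-K1 at 13 and H2-D1 at 12 of 30. Longer stretches of 130 bases show what lies further upstream in H2-K1 (chr17:34000348-34000477, minus) and B2m (chr2:122147537-122147666, plus). Capitals mark matches to the 5 motifs searched: the 2 above, GGGATTCCC (the kappaB site of the class I enhancer A), GAAANNGAA (core of the interferon-stimulated response element) and TTCNNNGAA (STAT site).
H2-K1: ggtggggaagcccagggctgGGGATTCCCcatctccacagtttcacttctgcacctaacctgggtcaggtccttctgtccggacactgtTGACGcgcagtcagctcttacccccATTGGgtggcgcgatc
B2m: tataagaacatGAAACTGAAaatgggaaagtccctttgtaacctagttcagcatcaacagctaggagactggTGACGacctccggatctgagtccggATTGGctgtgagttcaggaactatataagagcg

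The kappaB letters stood in the windows of H2-K1, H2-D1 and H2-Q7, against 0.301% of all windows. The interferon element core, in the exact form GAAANNGAA, stood in those of B2m, H2-T23 and Erap1 (7.13% of all windows). TGACG alone was in 5 of the 8 windows (17.8% of all) and CCAAT in 7 of 8 (33.8% of all), and TTCNNNGAA in 0 of 8 (7.02% of all). In B2m the interferon element core, TGACG and ATTGG do not overlap. A match describes these letters in this window and does not show that a factor binds there. Only these exact letters were searched, so a window without a match may hold a variant of the element.

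Libraries held between 15107875 and 16399328 fragments in genes, estimated from the steps of the deposited values. FPKM, the unit used throughout, scales a gene's fragments by its exon length and by the size of the library, so that levels of different genes can be set side by side. Adar stood at 15.04 and 14.62 FPKM in WT 1 and WT 2 and at 15.19 and 16.79 FPKM in KO 1 and KO 2, which over the whole gene does not check the loss of exons. The direction of every comparison is thus that of libraries labelled KO, whose label this level leaves unchecked. Markers of other cells stood high in these sorted libraries, and KO 2 stood apart. The 20 neutrophil markers summed to 9.0% and 8.7% of all FPKM in WT 1 and WT 2, 11.8% in KO 1 and 22.3% in KO 2, with 0 of the 20 at 0 in any library. The 24 B lineage markers, all detected in every library, summed to 0.898% and 0.974% in wild type against 0.824% and 0.404%, below the neutrophil sum in each library. Each sum depends on which genes were listed, so the sums of different lists do not compare numbers of cells. In bulk samples, fewer cells of a type and less RNA per cell cannot be told apart.

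Levels differed widely by role. In wild type B2m was the most abundant member at a mean of 1327 ± 70.8 FPKM (SD, n = 2), followed by H2-D1 (495 ± 17.5), H2-K1 (344 ± 12.3), H2-T23 (54.0 ± 3.68), Tapbp (42.8 ± 1.1), Tap1 (34.5 ± 0.346), Tap2 (27.7 ± 1.23), H2-Q7 (26.7 ± 0.396), Nlrc5 (14.98 ± 2.45) and Erap1 (12.6 ± 0.127). Of the neighbours in this order, only Tap2 and H2-Q7 had overlapping wild type values. In the libraries labelled KO the order was the same except that H2-Q7 stood above Tap1 and Tap2. There H2-T23 overlapped Tapbp, H2-Q7 overlapped Tap1, and Tap1 overlapped Tap2. Together the 10 members made up 0.751% and 0.733% of all FPKM in WT 1 and WT 2 and 0.807% and 0.815% in KO 1 and KO 2.

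**Figure D1:**
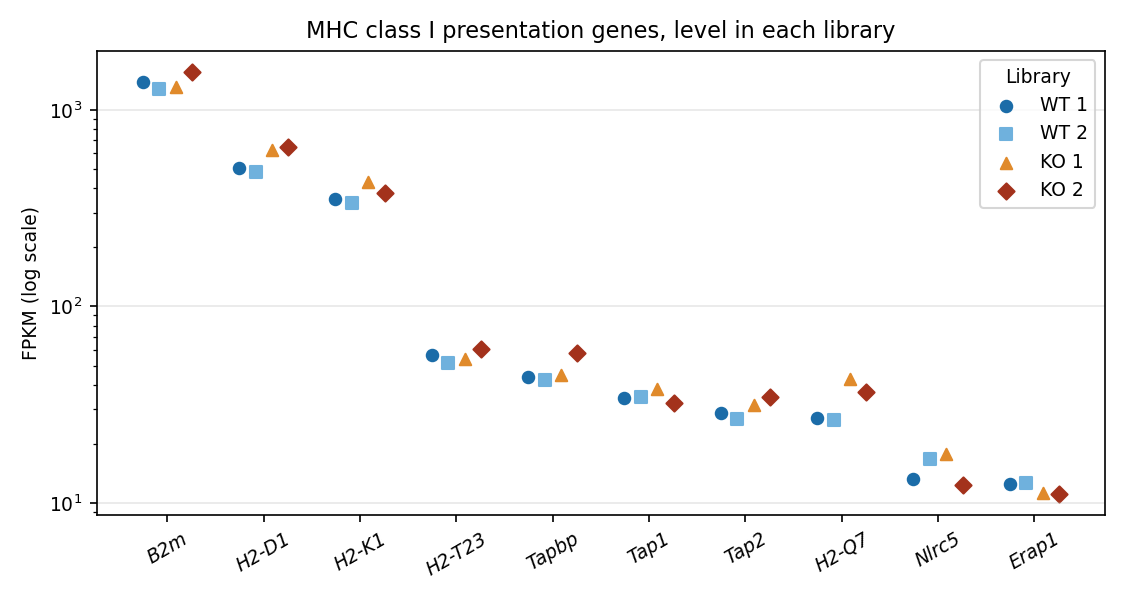
Level of each class I presentation gene (x axis, ordered by wild type mean) in FPKM on a log scale (y axis), with 1 point for each of the 4 libraries. B2m, H2-D1 and H2-K1 lie above 300 FPKM and the other 7 genes between 11.16 and 61.11 FPKM. Both KO points lie above both WT points for H2-D1, H2-K1, Tapbp, Tap2 and H2-Q7, and below them for Erap1.

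The comparison asked which transcripts differ in early B cells labelled as lacking ADAR1. None of the 10 members passed the threshold of an adjusted p of 0.05 in limma on log2(FPKM + 1), adjusted over all 13281 genes tested, of which 0.203% passed. Those were 27 genes, 0 higher and 27 lower in KO (56 higher and 77 lower with B-lineage scaling), and the number was 0 without KO 2, 948 without KO 1 and 14 without WT 1. At an unadjusted p under 0.05 there was 1 member, H2-Q7, where 12.5% of all genes stood, and voom on estimated fragments also called 0. The KO libraries were both above WT 1 and WT 2 for 5 members (H2-K1, H2-D1, H2-Q7, Tap2 and Tapbp), against 19.7% of all genes. They lay below both for 1, Erap1, against 31.7% of all genes, and the groups overlapped for 4. The log2 change, KO minus WT, was above 0 for 9 of 10 members and for 38.3% of all genes, with a median of 0.17 over the members and -0.09 over all genes. The count of 9 was 7 when values were rescaled to a common sum (TPM) and 10 after B-lineage scaling, which shifts each library to one median over B lineage markers. These scalings shift all genes of a library together, and the share of all genes above 0 was 32.8% and 94.0% under them. The count was also 7 without KO 1 and 7 without KO 2, where 35.7% and 49.9% of all genes were above 0. It was 8 without WT 1 and 8 with a pseudocount of 0.1, where 39.5% and 38.2% of all genes were.

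**Figure D2:**
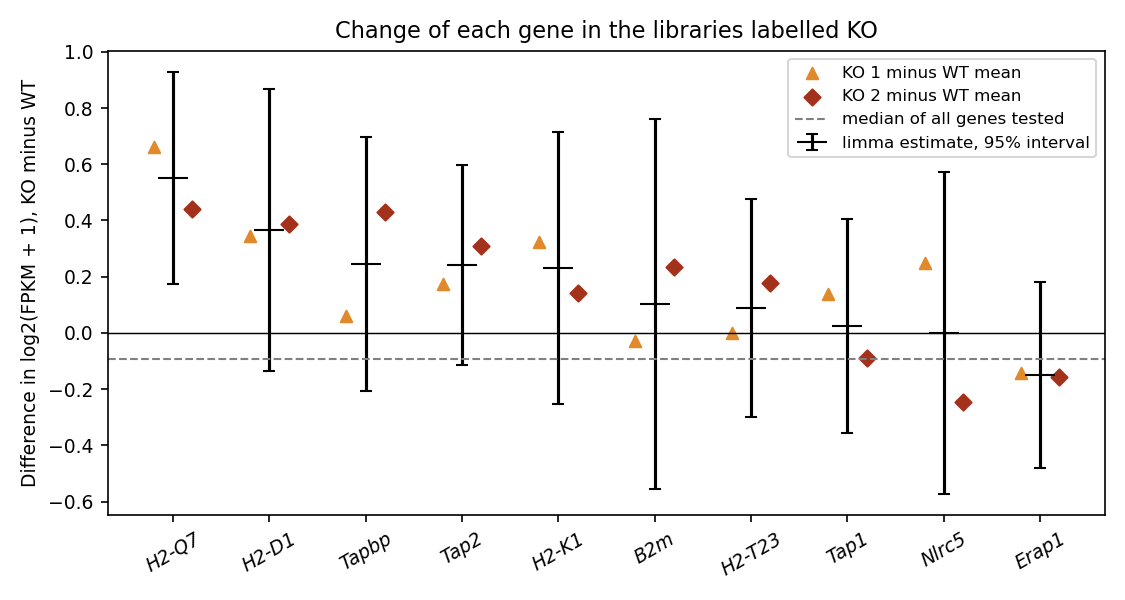
Difference in log2(FPKM + 1) between KO and WT (y axis) for each member (x axis). The black bar is the limma estimate with its 95% interval, triangles and diamonds are KO 1 and KO 2 minus the wild type mean, and the dashed line is the median of all genes tested (-0.09). Only the interval of H2-Q7 lies above 0. KO 1 and KO 2 fall on opposite sides of 0 for Tap1, Nlrc5 and B2m, and KO 1 lies at 0 for H2-T23.

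Among the classical chains, H2-D1 (ENSMUSG00000073411, chromosome 17, 35262730 to 35267499, plus strand) stood at 507.07 and 482.37 FPKM in WT 1 and WT 2 and at 627.58 and 646.94 FPKM in KO 1 and KO 2. Both KO libraries were high and close to each other, and the groups did not overlap. Its mean level was 1.29 times that of wild type, with a log2 change of 0.36 ± 0.20 (SE; 95% interval -0.14 to 0.87) and an adjusted p of 0.475 in limma. H2-K1 (ENSMUSG00000061232, chromosome 17, 33996017 to 34000347, minus strand) was at 352.51 and 335.12 FPKM against 429.87 and 378.88 FPKM. Here KO 1 was the highest library and KO 2 lay closer to wild type, without overlap. The log2 change was 0.23 ± 0.19 (SE), with an adjusted p of 0.582 in limma. H2-D1 and H2-K1 stayed above 0 in all 14 alternative settings run, in a range of 0.30 to 0.91 for H2-D1 and 0.14 to 0.77 for H2-K1.

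The balance of the classical chains was close to constant in 3 libraries and stood apart in the fourth. H2-D1 was at 1.44 times H2-K1 in both WT 1 and WT 2, at 1.46 times in KO 1 and at 1.71 times in KO 2. KO 2 is also the library with the largest neutrophil and smallest B lineage share, and the part of those shares in this ratio was not tested. H2-K1 and H2-D1 together supplied between 91.1% and 91.6% of the summed FPKM of the 4 chains in every library.

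H2-Q7, a Qa-2 chain, had the largest log2 change among the members. This gene (ENSMUSG00000060550, chromosome 17, 35439155 to 35443773, plus strand) stood at 26.97 and 26.41 FPKM in wild type and at 42.79 and 36.62 FPKM in KO 1 and KO 2. The wild type libraries were nearly alike, and both KO libraries were clearly above them. The ratio of the means was 1.49, and the log2 change of 0.55 ± 0.15 (SE; 95% interval 0.17 to 0.93) had an unadjusted p of 0.013 and an adjusted p of 0.345 in limma, so it did not pass. Over the 14 alternatives its log2 change ranged from 0.44 to 1.1 and its adjusted p from 0.0637 (without KO 1) to 0.980. The estimated fragments behind H2-Q7 numbered 1818 to 2892 per library, a counting error of at most 2.35%.

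How firmly fragments can be given to H2-Q7 is limited by its relatives. Of the distinct 50-base stretches of its GENCODE transcripts, 26.5% also occurred in transcripts of another gene (12.0% at 100 bases), most often H2-Q10, H2-Q5 and H2-Q6. No source used here gives the read length or the treatment of fragments that map to several genes, so the values of the Q genes are uncertain. H2-Q6, which lies beside H2-Q7 and also encodes Qa-2, was at 72.78 and 79.03 FPKM in the wild type pair and 115.63 and 73.77 FPKM in the KO pair. For H2-Q6 only KO 1 was high, while KO 2 lay among the wild type values (adjusted p = 0.609 in limma). The ratio of H2-Q6 to H2-Q7 was 2.70 and 2.99 in wild type, 2.70 in KO 1 and 2.01 in KO 2, and their sum was 99.8 and 105 FPKM against 158 and 110 FPKM. The pseudogene H2-Q5, chosen after its values were seen, was at 24.14 and 28.33 against 47.10 and 26.43 FPKM, again high in KO 1 only.

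**Figure D3:**
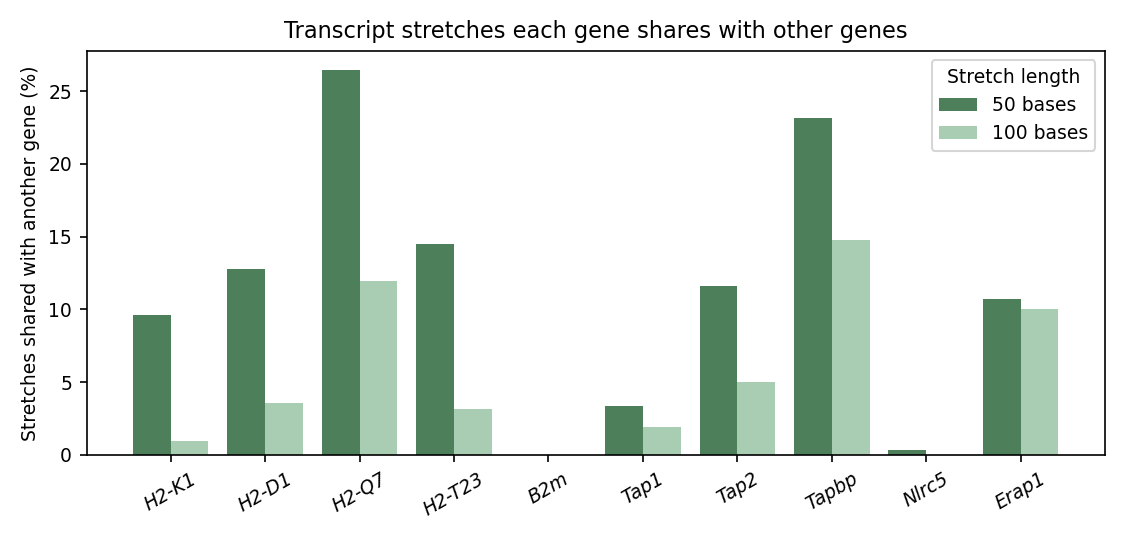
Percentage of the distinct transcript stretches of each member that also occur in transcripts of another gene (y axis), for stretches of 50 bases (dark bars) and 100 bases (light bars). H2-Q7 (26.5% and 12.0%) and Tapbp (23.2% and 14.8%) have the tallest bars, and B2m has none at either length.

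H2-T23, the Qa-1 chain (ENSMUSG00000067212, chromosome 17, 36029773 to 36032855, minus strand), was at 56.60 and 51.40 FPKM in wild type and 53.91 and 61.11 FPKM in KO 1 and KO 2. KO 1 lay between the wild type libraries and only KO 2 lay above them. The log2 change was 0.09 ± 0.15 (SE; 95% interval -0.30 to 0.48; adjusted p = 0.778 in limma). Its sign was that of KO 2, since without KO 2 the log2 change was -0.0007. H2-T23 shared 14.5% of its 50-base stretches with other genes, first the pseudogene H2-T-ps.

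B2m, the light chain common to all class I molecules (ENSMUSG00000060802, chromosome 2, 122147686 to 122153083, plus strand), stood at 1377.20 and 1277.04 FPKM in wild type and at 1300.69 and 1559.61 FPKM in KO 1 and KO 2. KO 1 fell within the wild type values and KO 2 was the highest library. The log2 change of 0.10 ± 0.26 (SE; 95% interval -0.55 to 0.76) had an adjusted p of 0.851 in limma, and was -0.03 without KO 2. None of its 50-base stretches occurred in another gene.

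The balance of heavy chains to light chain was not the same in the KO libraries. The 4 chains summed to 943 and 895 FPKM in WT 1 and WT 2 and to 1154 and 1123 FPKM in KO 1 and KO 2. Set against B2m of the same library, that is a ratio of 0.685 and 0.701 in wild type, 0.887 in KO 1 and 0.720 in KO 2. KO 1 stood apart and KO 2 was close to wild type. The mean ratio in KO was 1.16 times that in wild type, 1.28 times without KO 2 and 1.04 times without KO 1. With all 11 H2 class I chains that passed the filter the ratio was 0.856 in WT 1, 0.894 in WT 2, 1.13 in KO 1 and 0.876 in KO 2.

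Of the TAP transporter, Tap2 (ENSMUSG00000024339, chromosome 17, 34203527 to 34216321, plus strand) was at 28.55 and 26.81 FPKM in the wild type pair and 31.37 and 34.50 FPKM in the KO pair. Both KO libraries were above both wild type libraries, KO 2 the higher. Its log2 change was 0.24 ± 0.14 (SE; 95% interval -0.11 to 0.60; adjusted p = 0.490 in limma). Tap1 (ENSMUSG00000037321, chromosome 17, 34187553 to 34197225, plus strand), the other subunit, was at 34.26 and 34.75 FPKM against 38.03 and 32.34 FPKM. KO 1 was above and KO 2 below both wild type libraries, which themselves differed by 1.42% of their mean. The log2 change of Tap1 was 0.02 ± 0.15 (SE; adjusted p = 0.944 in limma), and it turned to -0.04 when values were rescaled to a common sum. The ratio of Tap1 to Tap2 was 1.20 and 1.30 in WT 1 and WT 2, 1.21 in KO 1 and 0.937 in KO 2, so that Tap2 exceeded Tap1 in KO 2 alone.

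Tap1 and Tap2 lie beside immunoproteasome genes, which make peptides suited to class I. Tap1 shares its start region with Psmb9, whose annotated transcripts run past the start of Tap1 on the other strand. Psmb9 was at 27.98 and 26.76 FPKM in the wild type pair and 30.15 and 25.00 FPKM in the KO pair, the same order of libraries as Tap1 in the KO group. The ratio of Tap1 to Psmb9 was 1.22 and 1.30 in WT 1 and WT 2 and 1.26 and 1.29 in KO 1 and KO 2, within the wild type range in both. Of the Tap1 stretches of 50 bases, 2.88% were shared with Psmb9, and no source used here says whether counting used strand. Psmb8, between Tap1 and Tap2, was at 44.47 and 37.82 against 44.03 and 38.08 FPKM. Of 5 immunoproteasome and activator genes 0 passed, against 0.203% of all genes. Below both wild type libraries lay 1, against 31.7% of all genes, the activator Psme1 at 61.13 and 59.12 against 54.67 and 54.33 FPKM. Psmb10 was at 39.83 and 38.33 against 40.99 and 30.17 FPKM, and Psme2 at 18.01 and 15.95 against 15.42 and 19.27 FPKM. Their list median was -0.002.

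Tapbp, which encodes tapasin, the bridge between TAP and empty class I molecules (ENSMUSG00000024308, chromosome 17, 33915899 to 33929292, plus strand), was at 43.61 and 42.06 FPKM in wild type and 44.74 and 58.00 FPKM in KO 1 and KO 2. The groups did not overlap, but KO 1 exceeded WT 1 only narrowly while KO 2 was far above. The log2 change was 0.25 ± 0.18 (SE; 95% interval -0.21 to 0.70; adjusted p = 0.546 in limma), and it was 0.06 without KO 2 and 0.43 without KO 1, where its adjusted p was 0.0652. In 23.2% of its 50-base stretches Tapbp matched another gene, chiefly Gm19412 (20.3%), an antisense gene that lies within it.

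Erap1, the aminopeptidase that trims peptides in the endoplasmic reticulum (ENSMUSG00000021583, chromosome 13, 74639568 to 74693201, plus strand), was the only member lower in both KO libraries than in both wild type libraries. It stood at 12.46 and 12.64 FPKM in WT 1 and WT 2 and at 11.26 and 11.16 FPKM in KO 1 and KO 2. The libraries of each group were nearly alike, differing by 1.43% of the mean in wild type and 0.892% in KO, under the counting error of up to 2.85%. The mean in KO was 0.893 times that in wild type, and the log2 change of -0.15 ± 0.13 (SE; 95% interval -0.48 to 0.18) had an adjusted p of 0.601 in limma. The median of all genes was -0.09. With B-lineage scaling Erap1 was at 0.39 and the median of all genes at 0.45, so Erap1 lay below it under both, an order that this scaling cannot change. Without KO 1 Erap1 was at -0.156, above the median of all genes at -0.166. Without KO 2 it was at -0.144, below the median of -0.0007. Erap1 shared 10.7% of its 50-base stretches with its neighbour Cast. Measured against tapasin of the same library, Erap1 was at 0.286 and 0.301 in wild type, 0.252 in KO 1 and 0.192 in KO 2.

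Nlrc5, the transactivator (ENSMUSG00000074151, chromosome 8, 94434356 to 94527272, plus strand), was at 13.25 and 16.71 FPKM in wild type and at 17.86 and 12.39 FPKM in KO 1 and KO 2. It was the most variable member within a group. The difference between the libraries of a group was 23.1% of their mean in wild type and 36.2% in KO, while 1591 to 2403 fragments per library gave a counting error of at most 2.51%. The KO libraries held both the highest and the lowest value, and the log2 change was 0.00048 ± 0.22 (SE; 95% interval -0.57 to 0.57; adjusted p = 0.999 in limma), turning to -0.06 with TPM rescaling. With 0.34% of its 50-base stretches in another gene, Nlrc5 was among the members whose fragments were easiest to assign. Per 100 FPKM of H2-K1 there were 3.76, 4.99, 4.15 and 3.27 FPKM of Nlrc5 in WT 1, WT 2, KO 1 and KO 2, with no separation of the groups.

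The other class I genes were read from lists taken whole. Of 20 further class I and class I-like chains 12 passed the filter and 0 the test, which 0.203% of all genes passed. Of the 12, 3 lay above and 2 below both wild type libraries, against 19.7% and 31.7% of all genes. The median log2 change of the 12 was -0.04. H2-Q10, a secreted chain best known from liver, was at 3.27 and 3.07 FPKM in the wild type pair and 4.43 and 8.11 FPKM in the KO pair, and H2-T24 at 16.68 and 17.70 against 18.49 and 29.94 FPKM. Both were highest in KO 2 and passed only without KO 1. Cd1d1, which presents lipids to NKT cells, was at 15.93 and 16.80 against 14.47 and 9.55 FPKM, and Mr1, which presents vitamin B metabolites to MAIT cells, at 1.64 and 1.58 against 1.02 and 1.04 FPKM. H2-M1, H2-M9, H2-M10.1 and H2-Q2 were listed at 0 in every library.

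Of 16 further genes of loading and trimming 0 passed, against 0.203% of all genes, and the list median was -0.11. Of these 16, 2 lay above and 6 below both wild type libraries, against 19.7% and 31.7% of all genes. Npepps, a cytosolic aminopeptidase, was at 14.71 and 13.53 FPKM in the wild type pair and 19.69 and 22.29 FPKM in the KO pair (log2 change 0.54 ± 0.14 SE, adjusted p = 0.345 in limma). The cytosolic peptidase genes Blmh and Lap3 were at 17.77 and 17.35 against 15.36 and 12.54 FPKM, respectively at 16.42 and 15.53 against 14.55 and 10.93 FPKM. Bcap31, a chaperone of class I export, was at 87.68 and 85.85 against 73.44 and 72.47 FPKM. Tpp2 was at 12.38 and 12.09 against 11.03 and 9.42 FPKM. Thop1 was at 17.75 and 19.31 against 19.50 and 8.54 FPKM, low in KO 2 only. Among the peptidases Npepps thus lay above both wild type libraries and Erap1, Blmh, Lap3 and Tpp2 below, while Thop1 and Lnpep overlapped.

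Among 26 regulators 0 passed, against 0.203% of all genes, and the median log2 change of the list was 0.09. Of these 26, 9 lay above and 7 below both wild type libraries, against 19.7% and 31.7% of all genes. Ifngr2, which encodes a chain of the interferon gamma receptor, had values of 13.34 and 13.21 against 16.39 and 19.59 FPKM. Ezh2 and Suz12, subunits of the PRC2 complex that can silence class I genes, were at 71.03 and 79.71 against 65.98 and 41.28 FPKM, respectively at 58.29 and 62.96 against 51.96 and 41.24 FPKM.

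The class I members were set beside the 42 interferon-stimulated genes, which share some genes with the regulators, and the 11 MHC class II genes. Of the interferon-stimulated genes 0 passed, against 0.203% of all genes, and 31 of 42 lay above both wild type libraries, against 19.7%. The list median was 0.42, with 0.23 in KO 1 and 0.67 in KO 2. With B-lineage scaling 5 passed (Ifit3b, Oas1g, Oas2, Oas3 and Oasl2), where 133 of all 13281 genes did. With a crossed replicate block 2 passed (Oas2 and Oas3), where 213 of all genes did. Further genes of the list passed only in the fit without KO 1, which leaves 1 KO library. In that fit the log2 changes of the 5 lay between 1.83 and 2.38. Those of the further genes ran from 0.64 (Sp100) to 1.97 (Ifit1), with Isg15 at 1.32 and Rsad2 at 1.39. The class I members had medians of 0.16 in KO 1 and 0.21 in KO 2. The difference between the lists was not tested. With all 4 libraries Oas3 and Oas2, synthetases that sense double-stranded RNA, had log2 changes of 1.43 and 1.48. Isg15, a ubiquitin-like modifier, had 1.00 and Ifit3b 1.38. All of these lay beyond every class I member. Of the class II genes 0 passed, 0 lay above both wild type libraries and 4 below (H2-DMb2, H2-Ob, Ciita and H2-Oa). Over all genes 19.7% lay above and 31.7% below. The class II median was -0.03. H2-DMb2, part of the peptide exchange factor H2-DM, had 10.36 and 10.08 FPKM in WT 1 and WT 2 and 4.30 and 4.20 FPKM in KO 1 and KO 2 (adjusted p = 0.0982 in limma). It passed without KO 1 and with the crossed block. H2-Ob, a chain of the H2-DM inhibitor H2-O, had 17.64 and 20.46 against 13.39 and 8.11 FPKM and passed without KO 1. Ciita, the class II counterpart of Nlrc5, was at 3.32 and 4.15 against 2.77 and 2.28 FPKM.

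**Figure D4:**
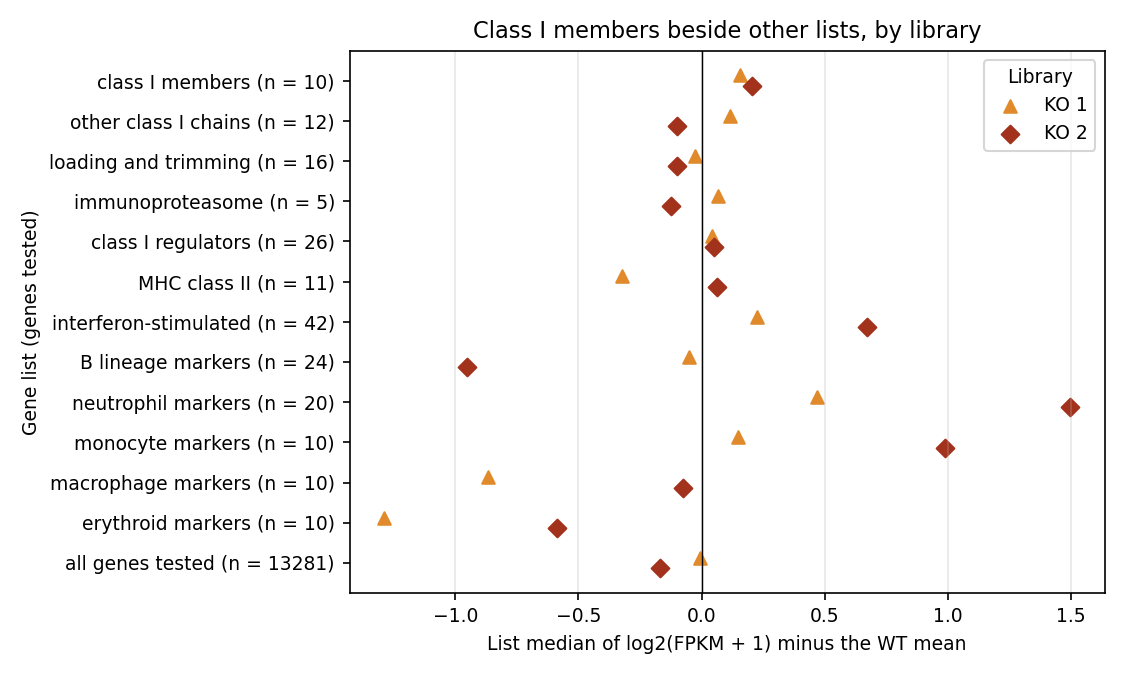
Median over each gene list (y axis, with the number of genes tested) of log2(FPKM + 1) minus the wild type mean (x axis), for KO 1 (triangles) and KO 2 (diamonds). The class I members lie at 0.16 and 0.21. The interferon-stimulated and neutrophil lists lie further right in KO 2 (0.67 and 1.5) than in KO 1 (0.23 and 0.47), and the B lineage list further left in KO 2 (-0.95) than in KO 1 (-0.05).

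Other cells express class I genes too, so the marker lists are given beside these values. The neutrophil list had medians of 0.47 in KO 1 and 1.5 in KO 2, the monocyte list 0.15 and 0.99, the B lineage list -0.05 and -0.95, the macrophage list -0.87 and -0.07, and the erythroid list -1.29 and -0.59. H2-K1, H2-Q7, Tap1, Nlrc5 and, by less than its counting error, Erap1 were higher in KO 1 than in KO 2, against the order of the neutrophil and monocyte lists, while H2-D1, H2-T23, B2m, Tap2 and Tapbp followed it. The part of other cells in the class I values was not tested. Without KO 2, the library with the largest neutrophil sum, H2-K1, H2-D1 and H2-Q7 had log2 changes of 0.32, 0.34 and 0.66. Nlrc5, Tap2, Tap1 and Tapbp had 0.25, 0.18, 0.14 and 0.06, and H2-T23, B2m and Erap1 had -0.0007, -0.03 and -0.14. The neutrophil sum of KO 1, 11.8%, was itself above the 9.0% and 8.7% of WT 1 and WT 2. With B-lineage scaling the members lay between 0.39 (Erap1) and 1.1 (H2-Q7). B-lineage scaling shifts all genes of a library alike and moved the median of all genes from -0.09 to 0.45. The member median exceeded that of all genes by 0.26, by 0.16 without KO 2, by 0.17 with no filter on low values and by 0.37 without KO 1.

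**Figure D5:**
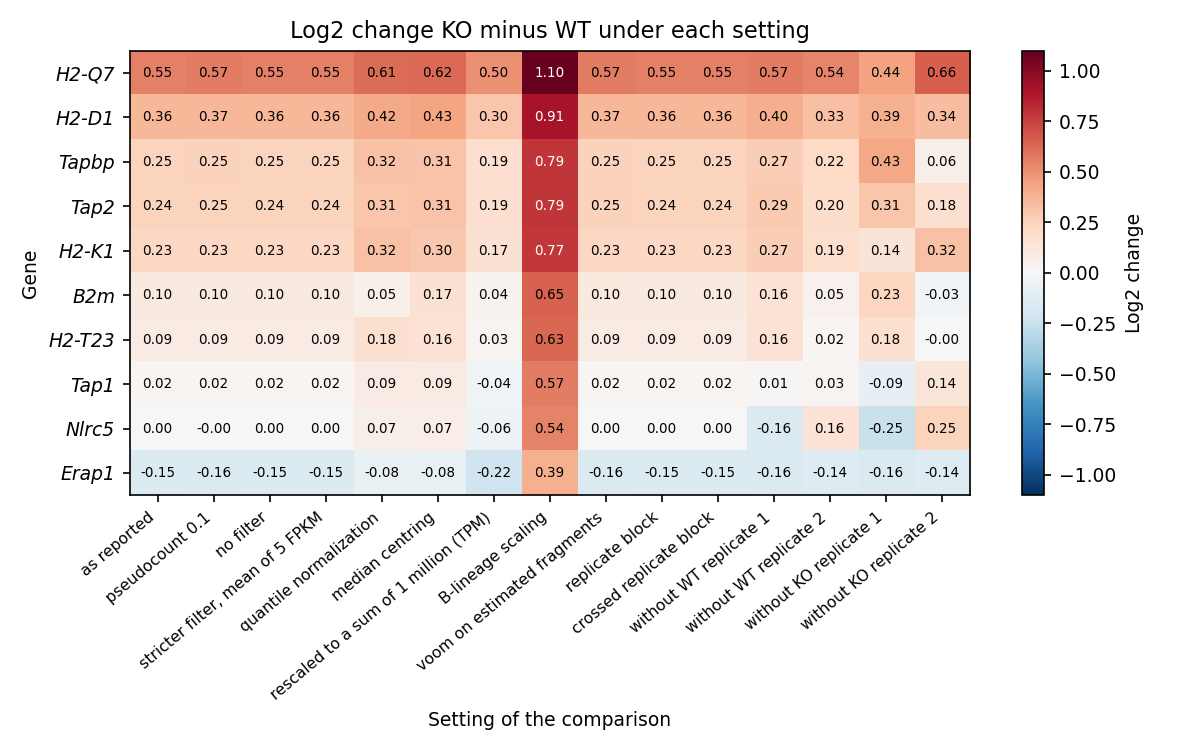
Log2 change, KO minus WT, of each member (y axis) under each setting of the comparison (x axis), with colour and printed values giving the change. H2-Q7, H2-D1, Tapbp, Tap2 and H2-K1 are above 0 in every column. Erap1 is below 0 in every column but B-lineage scaling, and Nlrc5, Tap1, H2-T23 and B2m change sign between columns.

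Genes with a profile like that of H2-D1 were sought among the 991 other genes whose mean reached 50 FPKM, by the root mean square difference of centred log2 values over the 4 libraries. The nearest 5 were Arhgef1 (0.0278), Gm6055 (0.0328), Arpc5 (0.0413), Tcirg1 (0.051) and Atp6v1g1 (0.0525). Arhgef1, a RhoGEF of blood cells, measured 67.72 and 66.92 FPKM in the wild type pair and 86.02 and 85.67 FPKM in the KO pair. With 4 libraries that share a direction for many genes, such closeness is a description only. Among class I members that reached this mean, H2-K1 came at rank 37, H2-T23 at 83 and B2m at 97. The other members were below 50 FPKM and were not ranked.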

How the data were processed

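The authors deposited FPKM values for 55573 mouse Ensembl gene identifiers in each of 4 libraries, per the file headers, rounded to 2 decimals. Per the submitters' processing notes the genome build was mm9. No aligner or counting program is given in the sources used here. Symbols and 1-based GRCm38 coordinates came from GENCODE M21 (55394 identifiers matched), whose union exon lengths made 99.4% to 99.5% of the low values checked whole multiples of 1 fragment within 0.15 fragments, where chance gives 30%. Fragments were estimated from these steps. Their counting error covers no other error.

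Groups were compared with limma 3.58.1 (R 4.3.3) as limma-trend on log2(FPKM + 1), without covariates, over the 13281 genes that averaged 1 FPKM or more in WT or in KO, with Benjamini-Hochberg adjustment over all of them. Log2 changes on this scale understate changes of low genes. The smallest exact permutation p that 2 against 2 allows is 0.333. Tested on simulated data with large known changes, limma recovered the changed genes but made more false calls than an adjusted p of 0.05 should allow. Calls among all genes may thus be too many. The simulated spread was the same for every gene and library, unlike the real spread, so the rate of false calls here is not known. The estimated fragments of WT 1 and WT 2 differed with a chi-square of 8.41 per degree of freedom and those of KO 1 and KO 2 with 61.4, above counting noise, which does not tell repeat preparations of one sample from separate mice. Alternatives are given in the closing section. The members and lists were chosen with earlier results of these data known. All members were named, and up to 4 genes with the smallest p of each other list. Neighbours of members and the other peptidases of the loading and trimming list were added. Nrdc did not match a symbol. B-lineage scaling shifts each library to one median over the B lineage markers.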

Additional observations from a re-analysis of the deposited data

How the results depend on the processing

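None of the 10 members passed under any of the 14 alternatives run, and the lowest adjusted p was 0.0637, for H2-Q7 without KO 1 (limma). The number of genes called, 27 over all genes, was 15 with a pseudocount of 0.1, 0 with no filter on low values (2257 at an unadjusted p under 0.05), 133 with B-lineage scaling (56 higher, 77 lower, against 0 higher and 27 lower), and 9 with voom on estimated fragments. Leaving out 1 library gave between 0 and 948 calls: 0 without KO 2, 948 without KO 1 and 14 without WT 1. The median log2 change of the members, 0.17, was 0.24 with quantile normalization and with median centring, 0.11 after rescaling to a common sum (TPM) and 0.71 with B-lineage scaling, and between 0.16 and 0.21 when 1 library was left out. Nlrc5 turned to -0.0003 with a pseudocount of 0.1 and to -0.0598 with TPM, Tap1 to -0.0373 with TPM, and Erap1 to 0.39 with B-lineage scaling. With 1 library left out, Nlrc5 ranged from -0.25 to 0.25, Tap1 from -0.0907 to 0.14, H2-T23 from -0.0007 to 0.18 and B2m from -0.0280 to 0.23, and the KO to WT quotient of the heavy chain to B2m ratio from 1.04 to 1.28. Such fits leave 1 group with 1 library, assumed to vary like the other group. The cause was not tested. The labels give both groups the numbers 1 and 2 but no shared animal, and deviations of same-numbered libraries had a correlation of -0.15 over 13281 genes. The replicate block gave 68 calls and a crossed replicate block, added after seeing the data, 213, with 0 members in either. Depth limits little here, since each member rests on at least 1229 fragments in every library, while 2 libraries per group limit the precision.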
